A study of Mus musculus with 12 samples.

Results

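Transcripts of 10 genes that the transcription factor p53 is known to activate, other than the p21 gene Cdkn1a, were read in 3 groups of C57BL/6 mouse cells. The groups were the endometrial cancer cell line HPmECC (titled WT), the endometrial cancer cell line mECC (titled DM) and primary cultured normal endometrial cells (titled B6), with 4 libraries each. The 10 genes were taken by name as known p53 targets, with no threshold on their values, but with earlier results of these data known. They are Ccng1, Zmat3, Phlda3, Eda2r, Aen, Sesn1, Perp, Trp53inp1, Btg2 and Fas, which are 10 of the 55385 gene identifiers in the count table, and all 10 were among the 15283 genes with enough counts to be tested. According to the series' design text some of the cancer cells carry overexpressed Myc, and the labels name neither those cells nor any p53 genotype. The labels do not explain the codes WT, DM and B6, give no animal age, and do not state whether the 4 libraries within each group are separate cultures or mice. Every p-value therefore reflects the scatter of these libraries alone, and that scatter may be technical.

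p53 is a DNA-binding protein that is stabilised when DNA is damaged or oncogenes are active, and it then switches on genes that halt the cell cycle, repair DNA, restrain growth signalling or trigger apoptosis. Mdm2, itself a target, marks p53 for degradation, which closes a feedback loop. In endometrial cancer p53 is one of the commonly altered tumour suppressors. The 10 genes cover several arms of the response. Ccng1, Btg2 and Phlda3 act on proliferation and growth signalling, and Zmat3 and Trp53inp1 act on RNA and on p53 itself. Aen, Perp, Eda2r and Fas act in cell death, and Sesn1 acts in metabolic stress.

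p53 binds a pair of adjoining half-sites of 10 bases, and the promoters of the genes were searched for them to show which carry such letters next to the start. RefSeq promoter windows on GRCm38.p6, from 250 bases before to 50 bases after each annotated start, were found for 7 of the 10 genes, in 9 windows. Perp, Trp53inp1 and Zmat3 were not matched. The p53 half-site consensus reads the same on both strands, so each match counts for both. It matched at all 10 positions in 4 of the 9 windows, and in 2745 of all 32851 windows (8.36%). These 4 windows belong to Ccng1, to Sesn1 at the more downstream of its annotated starts, and to Aen, whose windows overlap and share 1 match. A full site of 20 bases with at most 1 mismatch occurred in the Ccng1 window and in 29 of all windows (0.0883%), the one of Cdkn1a included. The matches are shown with their flanks, 5′ to 3′ on the strand of the gene, with the half-site that matched at all 10 positions in capitals, and with the Cdkn1a site for comparison:
Ccng1: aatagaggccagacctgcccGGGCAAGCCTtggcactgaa
Cdkn1a: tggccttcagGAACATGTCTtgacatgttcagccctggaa
Aen: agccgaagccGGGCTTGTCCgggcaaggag
Sesn1: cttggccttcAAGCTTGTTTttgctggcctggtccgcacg

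The Ccng1 stretch lies upstream of the gene at chr11:40755452-40755491 on the minus strand, and its 20-base site covers positions -195 to -176, counted from +1 at the start with no position 0. In Cdkn1a the stretch lies at chr17:29090918-29090957 on the plus strand, upstream of the gene. The Aen stretch, at chr7:78895927-78895956 on the plus strand, lies in a UTR or another exon of some annotated transcripts and outside others. For Sesn1 it lies at chr10:41887256-41887295 on the plus strand, within an intron of the longer transcripts and upstream of the shorter ones. The wider Ccng1 promoter, positions -250 to -51 (chr11:40755337-40755536, minus strand), is shown because its site is the closest match among the 9 windows:
Ccng1 upstream: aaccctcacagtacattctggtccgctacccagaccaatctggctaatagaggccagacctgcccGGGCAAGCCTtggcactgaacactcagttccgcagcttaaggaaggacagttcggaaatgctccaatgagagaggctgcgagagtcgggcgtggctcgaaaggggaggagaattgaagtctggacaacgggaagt
A match of letters is a description of the window and shows no binding, and a window without a match says nothing about sites elsewhere in the gene.

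Relative to normal cells the 10 genes moved in the same pattern in both cancer lines. The genes Ccng1, Zmat3, Phlda3, Btg2, Trp53inp1, Aen, Perp and Eda2r, 8 in all, were lower, and Sesn1 and Fas were higher. The 8 genes were 2.46-fold to 181-fold lower in HPmECC than in normal cells, with a median of 4.88-fold, and 2.95-fold to 368-fold lower in mECC than in normal cells, with a median of 4.59-fold. In HPmECC against normal cells 8 of 10 were called lower and 2 higher (edgeR adjusted p of at most 2.32e-15), where 43.3% of all tested genes were called lower and 43.0% higher, 86.4% in either direction. All 10 passed with a change of at least 2-fold, which 23.0% of all tested genes did downward and 18.5% upward (41.5% together), and all 10 had groups without overlap, as did 81.7% of all tested genes. In mECC against normal cells the counts were again 8 lower and 2 higher (edgeR adjusted p of at most 1.04e-13), beside 44.2% lower and 42.1% higher over all tested genes (86.3% in either direction). Here too all 10 reached 2-fold, against 22.8% of all tested genes downward and 18.4% upward (41.2% together), and all 10 were without overlap, against 82.3% of all tested genes. Both comparisons use the same normal libraries. Values are counts scaled to library size with TMM factors (CPM), unless given on the length-scaled TPM scale, and a gene was called at a Benjamini-Hochberg adjusted p under 0.05 over all 15283 genes.

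In bulk RNA, fewer cells of a type and less RNA per cell cannot be told apart, and markers of several cell types differed between the groups. The summed level of 14 epithelial markers was 319.7 to 335.4 CPM in HPmECC libraries, 1656 to 1695 CPM in mECC libraries and 9988 to 10355 CPM in normal libraries. Only 6 of the 14 averaged at least 1 CPM in HPmECC libraries, against 13 in mECC and 14 in normal cells. The sum of 11 leukocyte markers was 17.6 to 20.2 CPM in HPmECC libraries and 11.1 to 14.0 CPM in mECC libraries, against 257 to 276 CPM in normal libraries, and Tyrobp had 0 counts in both lines. Cd3e had 0 counts in both lines and 1 count in normal cells. Smooth muscle markers (6 genes) summed to 187 to 249 CPM in HPmECC libraries, 51.6 to 54.1 CPM in mECC libraries and 2283 to 2753 CPM in normal libraries. The 6 endothelial markers summed to 5.78 to 8.61, 3.44 to 4.53 and 124 to 140.0 CPM across HPmECC, mECC and then normal libraries, with Cdh5 and Tek at 0 counts in HPmECC. The 5 mesothelial markers summed to 8.99 to 11.1, 36.6 to 42.1 and 444 to 486 CPM in the same order, and the 10 mesenchymal markers to 9097 to 9794, 8446 to 9335 and 2185 to 2722 CPM. The mesenchymal genes did not move together: 6 of the 10 were called higher and 4 lower than normal in both lines. The 4 were Col1a2 (2.11-fold lower in HPmECC, 9.12-fold lower in mECC), Dcn (10.05-fold and 4.24-fold), Lum (3.65-fold and 1.56-fold) and Thy1, at 20 counts in HPmECC and 0 in mECC against 1145 in normal cells. Upk1b had 0 counts in both lines, Upk3b and Lrrn4 in HPmECC, and Wt1 in mECC, while Ptprc and Adgre1 had 0 counts in HPmECC. Of the epithelial markers 14 of 14 were called lower in HPmECC and 13 of 14 in mECC, each against normal cells, with Krt19 not called in mECC. Of the leukocyte markers 9 of 11 had enough counts to be tested, and all 9 were called lower in both lines. The part of these markers in the results was not tested.

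**Figure D1:**
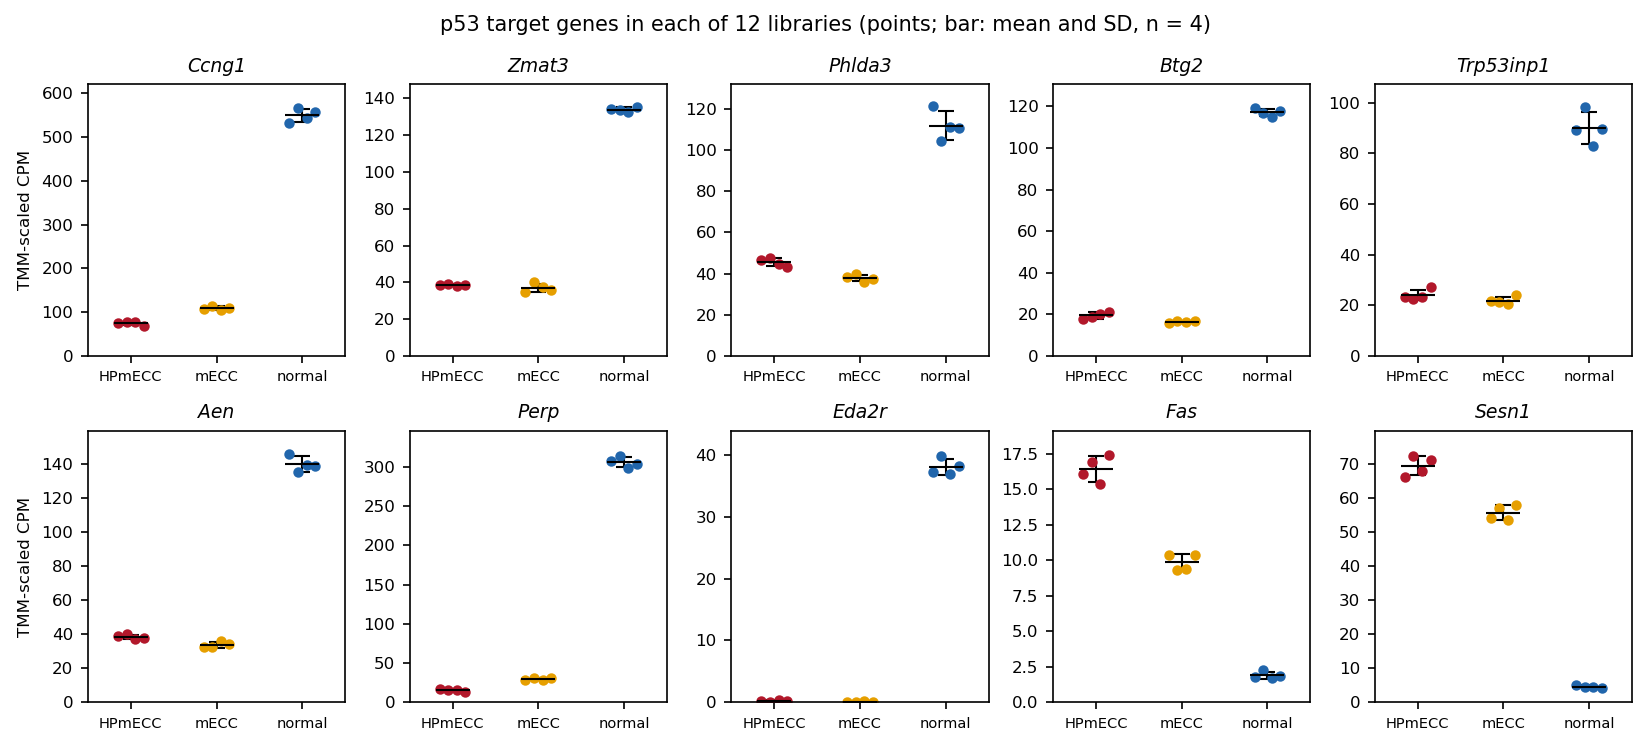
TMM-scaled CPM (vertical axes, each from 0) of the 10 genes in the 4 libraries of HPmECC, mECC and normal cells; points are libraries, and the bar gives the mean and SD. In 8 panels every library of both cancer lines lies below every normal library, and in the panels of Fas and Sesn1 every one lies above.

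Among the genes that act on proliferation and growth signalling, Ccng1 had the highest level in CPM in normal libraries. Ccng1 encodes cyclin G1, which brings phosphatase PP2A to Mdm2 (ENSMUSG00000020326, chromosome 11 at 40748552 to 40755311). It stood at 74.3, 77.1, 78.4 and 67.7 CPM in HPmECC libraries, at 106, 114, 105 and 109.6 CPM in mECC libraries, and at 532, 565, 544 and 556 CPM in normal libraries. The 3 groups did not overlap, with HPmECC lowest. Ccng1 was 7.40-fold lower in HPmECC than in normal cells (log2 fold change of -2.89 with SE 0.04, edgeR adjusted p = 2.26e-21) and 5.04-fold lower in mECC than in normal cells (-2.33, SE 0.04, edgeR adjusted p = 3.33e-20). HPmECC was also 1.47-fold below mECC (-0.55, SE 0.04, edgeR adjusted p = 8.32e-10).

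Btg2 encodes an antiproliferative protein that recruits the CCR4-NOT deadenylase to messenger RNAs (ENSMUSG00000020423, chromosome 1 at 134075170 to 134079120). Its levels were 17.6, 18.7, 20.3 and 21.2 CPM in HPmECC libraries, 15.6, 16.7, 16.3 and 16.7 CPM in mECC libraries, and 119, 117, 115 and 118 CPM in normal libraries. Normal libraries lay far above the rest, and HPmECC lay just above mECC without overlap. Btg2 fell 6.02-fold in HPmECC (log2 fold change of -2.59 with SE 0.04) and 7.17-fold in mECC (-2.84, SE 0.05), each relative to normal cells. Between the lines, HPmECC was 1.19-fold above mECC (0.25, SE 0.05, edgeR adjusted p = 4.00e-04).

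Phlda3, whose protein competes with Akt for membrane lipids and so restrains Akt signalling (ENSMUSG00000041801, chromosome 1 at 135766119 to 135769136), had the smallest change of the 8 lower genes. It measured 46.5, 47.6, 44.6 and 43.2 CPM in HPmECC libraries, 38.3, 39.8, 36.2 and 37.2 CPM in mECC libraries, and 121, 104, 111 and 111 CPM in normal libraries. Again the 3 groups did not overlap, with mECC lowest. The log2 fold change was -1.30 (SE 0.05) for HPmECC and -1.56 (SE 0.05) for mECC, each against normal cells, and 0.27 (SE 0.05, edgeR adjusted p = 8.62e-05) for HPmECC against mECC.

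Zmat3 and Trp53inp1 fell to about the same level in both lines. Zmat3 encodes a zinc finger protein that binds RNA and affects splicing (ENSMUSG00000027663, chromosome 3 at 32334792 to 32366014). It averaged 38.5 ± 0.56 CPM in HPmECC libraries, 37.1 ± 2.17 CPM in mECC libraries and 134 ± 1.32 CPM in normal libraries (SD, n = 4 each). Zmat3 was 3.47-fold lower in HPmECC and 3.61-fold lower in mECC than in normal cells, and the lines overlapped. The difference between the lines did not pass the test (log2 fold change 0.05 for HPmECC against mECC, 95% interval -0.034 to 0.14, edgeR adjusted p = 0.227), and it passed when replicate 2 of mECC was left out (0.09, edgeR adjusted p = 0.0345). On the TPM scale its sign turned, to -0.044 with limma on log2(TPM + 1) (limma adjusted p = 0.527), which also did not pass. Counts over TPM implied Zmat3 transcripts 10.6% longer in HPmECC and 7.68% longer in mECC than in normal cells.

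Trp53inp1 encodes a nuclear protein that binds p53 and promotes its activity, and that also acts in autophagy (ENSMUSG00000028211, chromosome 4 at 11156431 to 11174379). It averaged 24.0 ± 2.05 CPM in HPmECC libraries, 21.8 ± 1.47 CPM in mECC libraries and 89.99 ± 6.25 CPM in normal libraries (SD, n = 4 each). Against normal cells it was 3.74-fold lower in HPmECC and 4.14-fold lower in mECC. The lines overlapped, and their difference missed the threshold (log2 fold change 0.15 for HPmECC against mECC, 95% interval -0.0070 to 0.30, edgeR adjusted p = 0.0644). It passed without replicate 2 of HPmECC (0.18, edgeR adjusted p = 0.0332), without replicate 4 of mECC (0.19, edgeR adjusted p = 0.0224) and with no filter on low counts (0.14, edgeR adjusted p = 0.0242).

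Cell death genes went both ways. Aen, which encodes a nuclease that helps degrade DNA in apoptosis (ENSMUSG00000030609, chromosome 7 at 78895854 to 78911209), stood at 39.0, 39.9, 37.4 and 37.6 CPM in HPmECC libraries, 32.5, 32.2, 36.2 and 34.0 CPM in mECC libraries, and 146, 135, 139 and 139 CPM in normal libraries. Every normal library was above every cancer library, and the lines lay close together without overlap. Aen was 3.62-fold lower in HPmECC and 4.14-fold lower in mECC than in normal cells, and 1.14-fold higher in HPmECC than in the mECC line (log2 fold change of 0.19 with SE 0.04, edgeR adjusted p = 6.20e-04).

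Perp encodes a membrane protein of desmosomes that also promotes apoptosis, and in mouse epithelium it is known as a target of the p53 relative p63 as well (ENSMUSG00000019851, chromosome 10 at 18845020 to 18857073). It held 16.8, 16.01, 16.2 and 13.8 CPM in HPmECC libraries, 28.4, 31.0, 28.7 and 31.1 CPM in mECC libraries, and 307, 314, 298 and 303 CPM in normal libraries. The groups did not overlap and were ordered like the summed epithelial markers. The same order was seen in Ccng1, in the summed mesothelial markers, and in Trp53, Mdm2, Pmaip1 and Gdf15, among others. Other p53 targets, such as Cdkn1a and Plk2, were instead lowest in mECC. Perp was 19.5-fold lower in HPmECC than in normal cells (log2 fold change of -4.29 with SE 0.05), 10.3-fold lower in mECC than in normal cells (-3.36, SE 0.04) and 1.90-fold lower in HPmECC than in mECC (-0.93, SE 0.05, edgeR adjusted p = 2.31e-11). It had the largest difference of the 7 called genes between the lines. The part of the epithelial markers in this order was not tested.

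Eda2r was nearly absent from both cancer lines. It encodes a receptor for ectodysplasin A2, of the tumour necrosis factor receptor family (ENSMUSG00000034457, chromosome X at 97333840 to 97377216). The 4 libraries held 5, 2, 6 and 7 counts in HPmECC and 2, 3, 5 and 0 counts in mECC, against 550 to 831 counts in normal cells. Scaled to depth, Eda2r stood at 0.21, 0.071, 0.31 and 0.26 CPM in HPmECC libraries, 0.086, 0.11, 0.18 and 0 CPM in mECC libraries, and 37.2, 39.7, 36.9 and 38.2 CPM in normal libraries. No cancer library came near the normal ones. Eda2r was 181-fold lower in HPmECC (log2 fold change of -7.50 with SE 0.16) and 368-fold lower in mECC (-8.52, SE 0.18) than in normal cells. These folds rest on 20 counts in HPmECC and 10 in mECC, so their size is loosely set, and on log2(TPM + 1), which shrinks low values, they were -3.83 and -4.07. Between the lines the log2 fold change of 1.02 had a 95% interval of -0.19 to 2.24 (edgeR adjusted p = 0.0992), and it passed the threshold without replicate 2 of HPmECC (1.35, edgeR adjusted p = 0.0243) or replicate 3 of mECC (1.53, edgeR adjusted p = 0.0367).

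Fas, the death receptor that binds Fas ligand (ENSMUSG00000024778, chromosome 19 at 34290666 to 34327772), went against the other cell death genes. It stood at 16.03, 16.9, 15.3 and 17.4 CPM in HPmECC libraries, 10.4, 9.30, 9.35 and 10.3 CPM in mECC libraries, and 1.76, 2.29, 1.71 and 1.88 CPM in normal libraries. HPmECC was highest and normal lowest, with no overlap. Fas was 8.55-fold higher in HPmECC (log2 fold change of 3.10 with SE 0.10) and 5.11-fold higher in mECC (2.35, SE 0.11) than in normal cells, and 1.67-fold higher in HPmECC than in mECC (0.74, SE 0.07, edgeR adjusted p = 3.04e-08). The normal libraries held 26 to 44 counts of Fas each.

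Sesn1 encodes sestrin 1, which restrains mTORC1 signalling under stress (ENSMUSG00000038332, chromosome 10 at 41809935 to 41908424), and it had the largest rise. Its level was 66.2, 72.3, 68.0 and 71.0 CPM in HPmECC libraries, 54.2, 57.0, 53.4 and 57.9 CPM in mECC libraries, and 5.15, 4.52, 4.46 and 4.18 CPM in normal libraries. The order was the same as for Fas, without overlap. Sesn1 was 15.3-fold higher in HPmECC (log2 fold change of 3.94 with SE 0.06, edgeR adjusted p = 8.25e-21) and 12.2-fold higher in mECC (3.61, SE 0.06, edgeR adjusted p = 4.23e-20) than in normal cells. HPmECC was 1.25-fold above mECC (0.32, SE 0.04, edgeR adjusted p = 8.30e-07). Counts over TPM gave a change in transcript length of -9.07% in HPmECC and -7.24% in mECC relative to normal cells. The table gives 1 value per gene, so the annotated starts of Sesn1 were not separated.

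**Figure D2:**
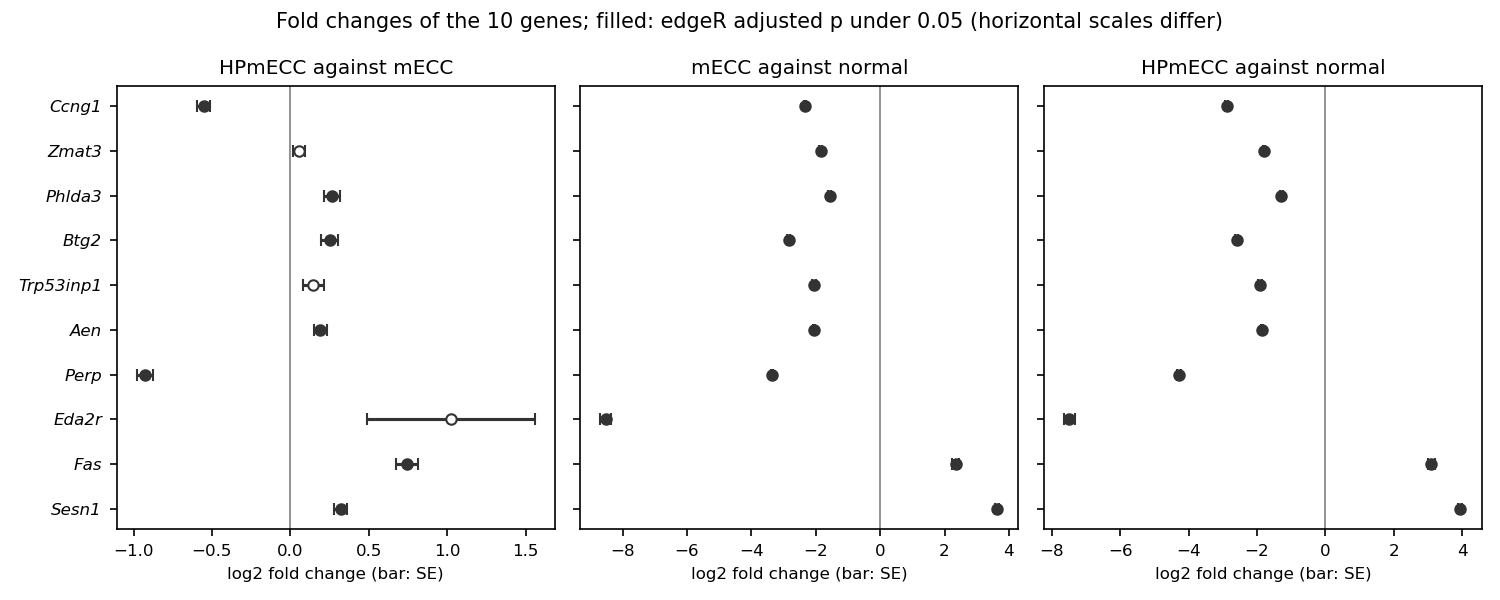
Log2 fold changes (horizontal axes, with their own scale in each panel) of the 10 genes in the 3 comparisons, with SE as bars; filled points passed an edgeR adjusted p under 0.05. Against normal cells 8 points lie left of 0 and 2 right of it in both lines, while between the lines Ccng1 and Perp lie left and Zmat3, Trp53inp1 and Eda2r are open.

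Between the cancer lines the differences were small. Of the 10 genes, 5 were higher in HPmECC than in mECC (Phlda3, Aen, Sesn1, Btg2 and Fas), 2 were lower (Ccng1 and Perp) and 3 did not pass the test. Over all tested genes 33.8% were called higher and 34.5% lower in this comparison, 68.3% in either direction, so 7 of 10 called is close to the background. None of the 10 was called with a change of at least 2-fold, which 16.1% of all tested genes showed, 9.4% downward and 6.73% upward. In 7 of the 10 the lines' libraries did not overlap, as in 63.0% of all tested genes. Of the 8 genes lower than normal in both lines, Ccng1 and Perp were thus lower still in HPmECC than in mECC, whereas Phlda3, Aen and Btg2 were higher.

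Expressed per transcript length, the order of the 10 genes also differed between the groups. In HPmECC the highest were Phlda3 at 59.5 ± 2.62 TPM, Sesn1 at 42.6 ± 2.18 TPM and Ccng1 at 36.4 ± 2.40 TPM. In mECC they were Ccng1 at 55.8 ± 2.36, Phlda3 at 51.9 ± 2.49 and Sesn1 at 35.1 ± 1.46 TPM, and the libraries of Ccng1 and Phlda3 overlapped. In normal cells Perp at 249.4 ± 6.16 TPM and Ccng1 at 237 ± 6.64 TPM led, with overlapping libraries, and Sesn1 and Fas were last with 2.26 ± 0.18 and 2.26 ± 0.25 TPM (SD, n = 4 throughout). Sesn1 thus shared the last place in normal cells with Fas, and held rank 2 in HPmECC and rank 3 in mECC. Eda2r was last in both lines, at 0.27 ± 0.31 TPM in HPmECC and 0.055 ± 0.045 TPM in mECC, against 16.7 ± 0.51 TPM in normal cells.

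Replicate libraries agreed closely for these genes. Leaving Eda2r aside in the cancer lines, the coefficient of variation of CPM within a group was 1.45% to 8.52% in HPmECC, 3.15% to 6.75% in mECC and 0.99% to 13.7% in normal cells, where Fas was the most variable. Library totals ran from 16332060 to 26873582 counts.

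Some of the genes had nearly the same profile as each other. The likeness was measured as the mean absolute difference of log2 CPM over the 12 libraries after centring each gene on its own mean, so that a small value means a similar profile. The closest of all pairs among the 10 were Zmat3 and Aen (0.074), then Aen and Trp53inp1 (0.10) and Zmat3 and Trp53inp1 (0.11). Among all other well-expressed named genes, the nearest to Aen was Mafk (0.039), to Zmat3 Cep170b (0.042), to Btg2 Adipor2 (0.045), to Phlda3 Tlnrd1 (0.056), to Ccng1 Gata2 (0.059), to Trp53inp1 Smtn (0.062) and to Perp Lmo7 (0.077). For Sesn1 the nearest gene was Notch3 (0.080), which averaged 112.5 ± 6.29 CPM in HPmECC libraries, 94.8 ± 4.34 CPM in mECC libraries and 8.26 ± 0.25 CPM in normal libraries. For Fas it was Hey1 (0.12), at 21.8 ± 0.38, 14.6 ± 0.75 and 3.02 ± 0.36 CPM across HPmECC, mECC and then normal libraries (SD, n = 4 each). Eda2r had no close neighbour, the nearest being Slco4a1 (0.28), but its profile in the cancer lines rests on 0 to 7 counts a library. These distances describe 12 libraries in 3 separate groups and carry no test.

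Transcripts of Trp53, the p53 gene, were nearly absent from both lines. Trp53 (ENSMUSG00000059552, chromosome 11 at 69580359 to 69591873) stood at 1.24, 1.72, 1.68 and 1.25 CPM in HPmECC libraries, 2.18, 2.04, 2.25 and 2.09 CPM in mECC libraries, and 149, 142, 140 and 135 CPM in normal libraries. HPmECC was 96.1-fold below normal cells (log2 fold change of -6.59 with SE 0.07, edgeR adjusted p = 1.75e-23) and 1.46-fold below mECC (-0.54, SE 0.13, edgeR adjusted p = 0.00150). The files give no reads per exon, so which parts of Trp53 the remaining counts come from was not analysed here. The part of Trp53 in the levels of the 10 genes was not tested.

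Against normal cells the p53 relative Trp63 went the other way from Trp53. Trp63, the p63 gene, had 683 counts in HPmECC and 1216 in mECC, against 11 in normal cells, at 6.99 ± 0.42, 11.96 ± 1.44 and 0.14 ± 0.052 CPM (SD, n = 4 each). It was 45.4-fold higher in HPmECC and 77.5-fold higher in mECC than in normal cells, and 1.71-fold lower in HPmECC than in mECC (edgeR adjusted p = 5.73e-07). Trp73, the p73 gene, was not tested, with 0 counts in HPmECC, 3 in mECC and 2 in normal cells. Cdkn2a, which encodes the p53 activator Arf and the kinase inhibitor Ink4a, stood at 248.6 ± 5.31 CPM in HPmECC libraries and 154 ± 3.30 CPM in mECC libraries, against 1.03 ± 0.32 CPM in normal libraries. Mdm2, the ubiquitin ligase of p53, averaged 52.99 ± 1.03 CPM in HPmECC libraries, 60.7 ± 1.69 CPM in mECC libraries and 172 ± 1.70 CPM in normal libraries, and was 3.24-fold and 2.83-fold lower in HPmECC and mECC than in normal cells. Its relative Mdm4, an inhibitor of p53, was 1.16-fold higher in HPmECC than in normal cells (edgeR adjusted p = 5.51e-05) and did not pass in mECC against normal cells (log2 fold change of -0.02 with SE 0.04, edgeR adjusted p = 0.632).

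**Figure D3:**
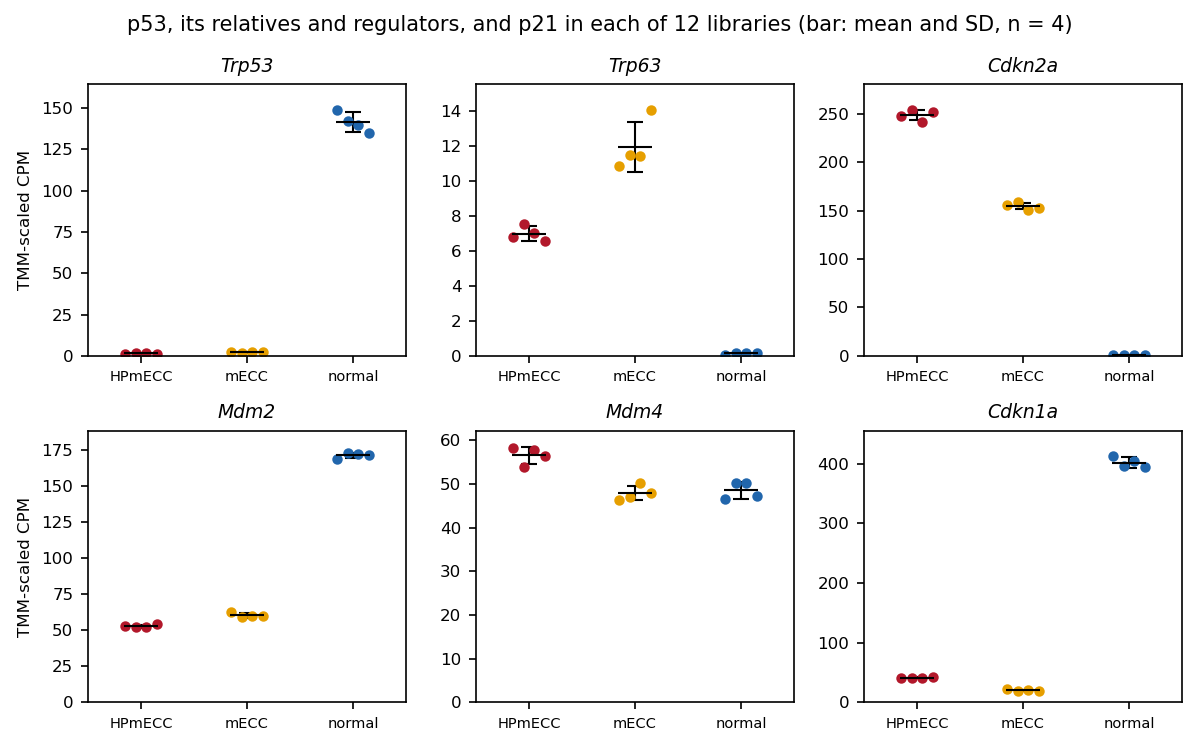
TMM-scaled CPM (vertical axes, each from 0) of Trp53, Trp63, Cdkn2a, Mdm2, Mdm4 and Cdkn1a in the 4 libraries of HPmECC, mECC and normal cells, with mean and SD. Trp53, Mdm2 and Cdkn1a are lower in both lines than in normal cells, Trp63 and Cdkn2a are higher, and Mdm4 spans a narrow range.

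A list of 21 p53 regulators, of which 20 were tested, had a share of called genes near the background, 85% in both comparisons with normal cells against 86.4% (HPmECC) and 86.3% (mECC) of all tested genes. It counted 6 higher and 11 lower in HPmECC against normal cells (median log2 fold change -0.11), 6 higher and 11 lower in mECC against normal cells (-0.36), and 9 higher and 6 lower in HPmECC against mECC (0.02), where 75% were called against 68.3% of all tested genes. The medians over all tested genes were 0.0012, -0.018 and -0.0017 in the same comparisons.

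Other known p53 targets were more often called lower than higher against normal cells. Of a list of 36, which excludes the 10 and shares Mdm2 and Ppm1d with the regulators, 35 were tested. The list was also chosen with earlier results of these data known. In HPmECC against normal cells 26 were lower and 6 higher (median log2 fold change -0.88), which is 74.3% and 17.1% of the list, beside 43.3% and 43.0% of all tested genes. In mECC against normal cells 29 were lower and 4 higher (-1.13), which is 82.9% and 11.4%, beside 44.2% and 42.1% of all tested genes. Counting only changes past 2-fold, 17 of the 35 were lower and 3 higher in HPmECC, where 23.0% and 18.5% of all tested genes were. In mECC 20 of the 35 were lower and 2 higher, where 22.8% and 18.4% of all tested genes were. Between the lines 15 were higher and 9 lower in HPmECC than in mECC (median 0.10), and the 68.6% called is near the 68.3% of all tested genes.

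The largest changes in that list against normal cells, among genes with at least 5 CPM in the higher group, were in Cdkn1a, Pmaip1, Plk2 and Gdf15, all lower in both lines than in normal cells. Cdkn1a, the p21 cell cycle inhibitor, averaged 41.4 ± 0.88 CPM in HPmECC libraries, 20.4 ± 1.10 CPM in mECC libraries and 402 ± 8.79 CPM in normal libraries. Pmaip1, which encodes the apoptosis inducer Noxa, was 33.2-fold lower in HPmECC and 16.3-fold lower in mECC than in normal cells. Plk2, a polo-like kinase gene, was 5.53-fold lower in HPmECC and 11.9-fold lower in mECC, and Gdf15, a secreted stress factor gene, 9.65-fold and 6.05-fold lower. Between the lines, HPmECC exceeded mECC 2.14-fold in Plk2 (60.8 ± 6.73 against 28.2 ± 1.20 CPM) and 1.90-fold in Ddit4l, whose protein restrains mTORC1 (36.5 ± 4.31 against 19.4 ± 1.54 CPM), while Pmaip1 was 2.04-fold lower (12.1 ± 1.69 against 24.6 ± 1.19 CPM). Each of these differences passed the edgeR threshold, the one between the lines for Cdkn1a included (2.03-fold higher in HPmECC, edgeR adjusted p = 6.30e-14).

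**Figure D4:**
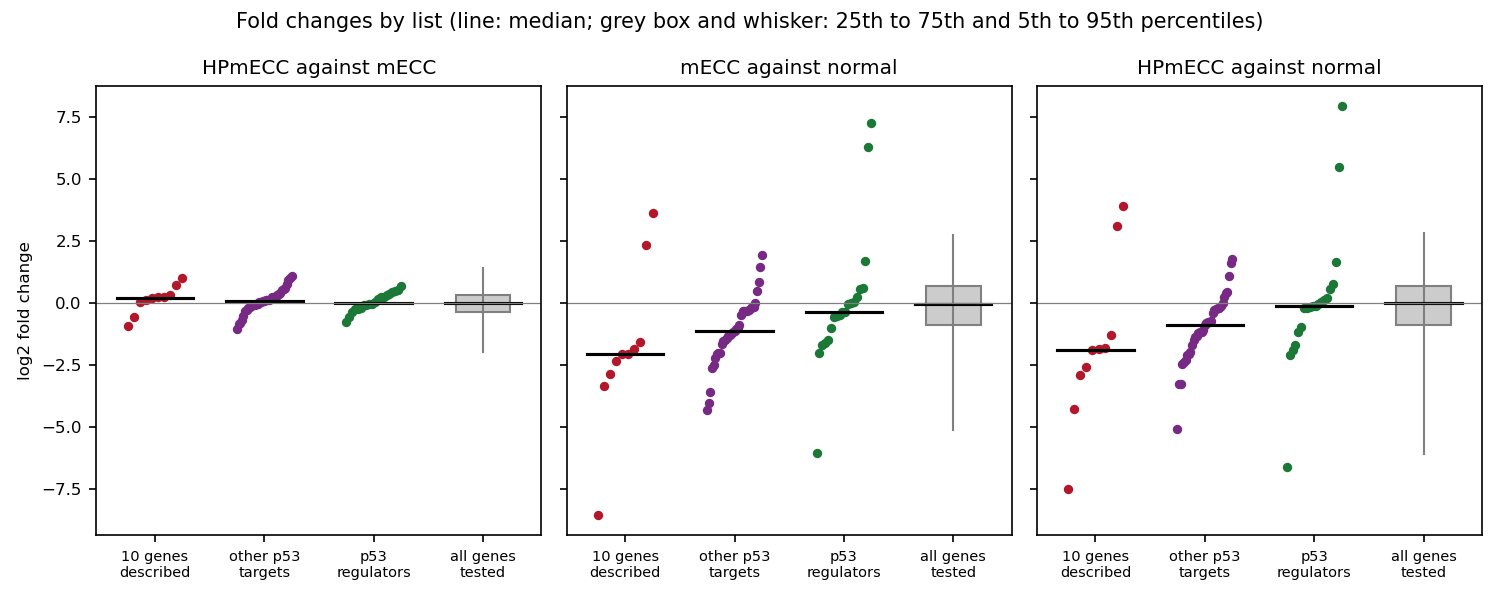
Log2 fold changes (vertical axis) in the 3 comparisons for the 10 genes, 35 other p53 targets and 20 p53 regulators, with the median as a line; the grey box and whisker give the 25th to 75th and 5th to 95th percentiles of all 15283 tested genes. In the panels against normal cells the medians of the 10 genes (-1.88 for HPmECC, -2.05 for mECC) lie below the box, and between the lines the median is 0.22.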

How the data were processed

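The submitters' processing notes name Trim Galore, STAR 2.6.1a, RSEM 1.3.1 and GRCm38, and the sources used here state neither an annotation release nor a strand setting. The authors deposited RSEM expected counts per gene as whole numbers, which were tested as they stand, and TPM values scaled by the authors for transcript length. FPKM values were not used. Of 55385 identifiers, 55144 matched a symbol. Gene coordinates came from GENCODE M21 (GRCm38), in which no exon of the 10 genes overlapped an exon of another gene. The libraries held 16332060 to 26873582 counts, and 4 libraries a group limit the precision.

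All 12 libraries were fitted with the edgeR 4.0.16 quasi-likelihood test in R 4.3.3, with 1 coefficient per group, TMM factors, filterByExpr (minimum 10 counts) and Benjamini-Hochberg adjustment over 15283 genes. The biological coefficient of variation was 4.27%. Errors are SD over 4 libraries unless marked SE, and SE came from the F statistic. Intervals use the t distribution with 9 residual degrees of freedom. They leave out the degrees of freedom that edgeR borrows across genes, so they are wider than the edgeR test implies. Implied length is counts over TPM, relative to the library's median gene. The fit was also run on simulated data in which few genes changed. That run does not cover comparisons in which most genes are called, as here. The 10 genes, the lists and the tests were chosen with earlier results of these data known. Besides the 10 genes and Trp53, Trp63, Trp73, Mdm2, Mdm4, Cdkn2a and Cdkn1a, the rule named for each comparison 4 called genes from the other-target list (the largest changes, given 5 CPM or more in one group), and the nearest profile per gene among named genes averaging at least 5 CPM. Results were also computed with median-of-ratios factors, with library totals, with 2 other filters on low counts, with DESeq2 1.42.0, with limma 3.58.1 on log2(TPM + 1) or log2(TPM + 0.1), with just the compared groups in the fit, with a replicate block, with a 2-fold minimum and with each library left out. Python 3.11.15 and matplotlib 3.10.9 drew the figures.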

Additional observations from a re-analysis of the deposited data

How the results depend on the processing

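The 30 log2 fold changes of the 10 genes were recomputed under 17 settings each, and 502 of 510 values kept their direction and side of the threshold. The other 8 concern Zmat3, Trp53inp1 and Eda2r between the lines, where no call was made. Zmat3 turned to -0.044 with log2(TPM + 1) and -0.048 with log2(TPM + 0.1), and the cause was not tested. A 2-fold minimum left 2465 genes called over the whole table for HPmECC against mECC, 6345 for HPmECC against normal cells and 6290 for mECC against normal cells. Between the lines it left 0 of the 10 genes (0 higher and 0 lower), 3 other p53 targets and 0 regulators. Against normal cells it left all 10 genes in both lines, beside 41.5% (HPmECC) and 41.2% (mECC) of all tested genes. Of the 35 other targets tested it left 17 lower and 3 higher in HPmECC, and 20 lower and 2 higher in mECC. Of the 20 regulators tested it left 8 in HPmECC and 9 in mECC. With library totals in place of TMM the median over all genes shifted to 0.22 in mECC against normal cells and 0.20 in HPmECC against normal cells. Of the genes called in mECC against normal cells, 59.1% were then higher, beside 48.8% with TMM (58.9% with log2(TPM + 1), 59.0% with log2(TPM + 0.1)), and all 10 genes kept their calls in both comparisons. With each library left out, 7 to 9 of the 10 genes were called between the lines. Over all 15283 tested genes, 10073 to 10276 were called there. Against normal cells all 10 were called each time. Beside them, 13011 to 13095 of all tested genes were called for HPmECC and 12972 to 13074 for mECC. Correlations of deviations in same-numbered libraries were low, at -0.03 to 0.080 over 12 pairs, with 0 above 0.1. In differently numbered libraries they reached 0.043 at most, and whether replicate numbers pair the libraries weakly was not tested. With the replicate block 10321 genes were called between the lines in place of 10440, and 7 of the 10 genes in both fits. Eda2r in the cancer lines is limited by depth, at 0 to 7 counts a library.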

Other observations

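A few known p53 targets outside the 10 genes were higher in both lines than in normal cells, and they were picked here after their values were seen. Pml, which organises nuclear bodies, averaged 108 ± 1.59 CPM in HPmECC libraries and 96.4 ± 4.82 CPM in mECC libraries, against 34.9 ± 1.12 CPM in normal libraries. Ak1, an adenylate kinase gene, stood at 88.6 ± 4.29 CPM in HPmECC libraries and 158 ± 4.59 CPM in mECC libraries, against 41.3 ± 5.89 CPM in normal libraries. Ddit4l averaged 36.5 ± 4.31, 19.4 ± 1.54 and 10.6 ± 0.28 CPM across HPmECC, mECC and then normal libraries. Bbc3, which encodes the apoptosis inducer Puma, was 1.37-fold higher in HPmECC than in normal cells (edgeR adjusted p = 2.63e-04) and 1.26-fold lower in mECC than in normal cells (edgeR adjusted p = 0.00603). Its levels were 9.50 ± 0.72, 5.52 ± 0.57 and 7.01 ± 0.68 CPM across HPmECC, mECC and then normal libraries (SD, n = 4 each), and HPmECC was 1.72-fold above mECC (edgeR adjusted p = 6.94e-07). Within the 30 sets of 4 libraries (10 genes in 3 groups), Dixon's test at the 95% level picked out 0 libraries.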
